A study of Homo sapiens with 9 samples.

Results

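The transcriptome of MDA-MB-231 cells carrying the first siRNA against ZIP7 (siZIP7_1) was compared with that of cells carrying a non-targeting control siRNA (siNC). Each group held 3 libraries, so the comparison rests on 6 of the 9 libraries of the series. The other 3 libraries carried a second siRNA against ZIP7 (siZIP7_2) and were used to find the changes made by siZIP7_1 alone. Every protein-coding gene was eligible. Of 19892 such genes in the count files, 13322 passed edgeR's low-count filter and were tested. MDA-MB-231 is a triple-negative breast cancer line of mesenchymal type with mutant p53. All cells were reverse-transfected and their RNA was taken 96 h later. Each siZIP7 reagent was 1 siRNA, so a change seen with siZIP7_1 alone has no second reagent behind it.

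ZIP7, encoded by SLC39A7, releases zinc from the endoplasmic reticulum (ER) and Golgi into the cytosol. The ER folds secreted and membrane proteins. When folding falls behind, the sensors IRE1, PERK and ATF6 start the unfolded protein response, which raises chaperones such as BiP and the machinery that returns misfolded proteins to the cytosol for degradation. Loss of ZIP7 has been tied to ER stress in several tissues. An siRNA guides the RNA interference machinery to its target mRNA.

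The libraries held 24153785 to 30454419 reads assigned to genes. Levels are in CPM, in which each library's TMM-normalized total is set to the same size. At these depths a count of 3 was 0.0985 to 0.124 CPM, and precision stated from counts covers counting error only. The biological coefficient of variation was 4.5%. Reads outside any gene made up 7.43 to 8.28% in siNC and 7.8 to 9.62% in siZIP7_1. Nothing in the labels says that the libraries came from separate cultures, so p-values measure the spread between these libraries, which may be technical. The labelled cell line was checked against its markers. VIM, CD44, KRT18, AXL, CAV1, EGFR and LGALS1 were present, with VIM at 5529 ± 180 CPM in siNC (SD, n = 3), while KRT5 was at 0 in every library. Of the other markers listed as absent or low in this line, PGR, ESR1, CDH1 and KRT14 averaged 0, 0.0887, 0.466 and 0.557 CPM in siNC. EPCAM averaged 6.57 CPM and ERBB2 74.2 CPM there, so these mRNAs were not absent.

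Knockdown with siZIP7_1 changed most of the transcriptome. At a Benjamini-Hochberg adjusted p under 0.05 in edgeR's quasi-likelihood test, 4748 genes were higher (35.6%) and 5390 were lower (40.5%) than in siNC. Most of these changes were small. A change of at least 2-fold was reached by 1241 higher genes (9.32%) and 1350 lower genes (10.1%). A 4-fold change was reached by 326 higher and 349 lower genes, and an 8-fold change by 107 and 148. The median log2 fold change over all 13322 genes was -0.04. These percentages are the background for every gene list below.

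**Figure D1:**
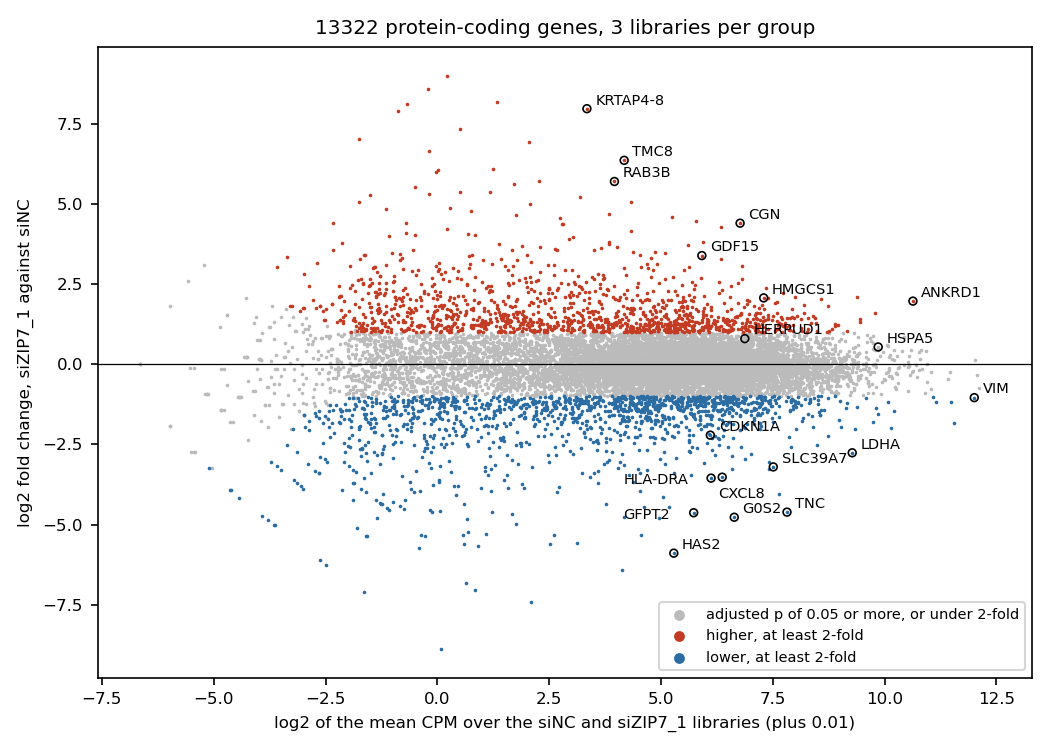
Log2 fold change of siZIP7_1 against siNC (vertical axis) by log2 mean CPM over both groups (horizontal axis), 1 point per protein-coding gene, with named genes circled. The 1241 higher and 1350 lower genes past 2-fold are spread over a wide range of expression, and SLC39A7 lies at -3.20.

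SLC39A7 itself was counted at 321, 343 and 322 CPM in the siNC libraries and at 35.4, 32.9 and 38.6 CPM in the siZIP7_1 libraries. The groups were far apart. Its log2 fold change was -3.20 (SE 0.058, adjusted p = 7.38e-27 by edgeR), which left 10.9% of the control level. In the siZIP7_2 libraries SLC39A7 was at 17.6 to 20.5 CPM, so the first siRNA left more ZIP7 mRNA than the second (log2 difference 0.89, SE 0.066, adjusted p = 4.89e-13 by edgeR).

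The 10 largest rises with siZIP7_1 were in genes at low levels in control cells, from a mean of 0.0744 CPM for KRTAP4-8 to 9.91 CPM for CGN. KRTAP4-8, a hair keratin-associated protein gene, had 3, 1 and 2 reads in the siNC libraries and 575, 553 and 660 in the siZIP7_1 libraries. This is a ratio of 266, with an exact 95% counting interval from 122 to 725. TMC8 rose from 0.387 to 0.472 CPM in siNC to 34.7 to 37.3 CPM in siZIP7_1 (log2 fold change 6.36, SE 0.14, adjusted p = 7.26e-25 by edgeR). RAB3B, a small GTPase of regulated secretion, rose from 0.301 to 0.762 CPM to 27.5 to 32.5 CPM. The pregnancy-specific glycoprotein PSG4 rose by 5.05 on the log2 scale and placental alkaline phosphatase ALPP by 4.70. PSG4 and ALPP belong to families of near-identical genes, and 20.6% of the ALPP exons overlap another gene, so their reads are less certain. MAMDC2, VSTM1, PTPRQ and the germ-cell translational repressor NANOS1 also rose, with log2 fold changes of 4.59, 4.56, 5.23 and 4.47. CGN reached the highest CPM of the 10. It encodes the tight junction protein cingulin and went from 10.1, 10.4 and 9.15 CPM to 214, 204 and 206 CPM.

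The largest falls took in several genes of the cell surface and the pericellular matrix. HAS2, which makes hyaluronan, went from 70.2, 82.6 and 77.2 CPM to 1.13, 1.65 and 1.1 CPM (log2 fold change -5.89, SE 0.12, adjusted p = 1.84e-25 by edgeR). CEMIP, which breaks hyaluronan down, went from 50.3, 40.7 and 46.8 CPM to 1.35, 0.996 and 1.13 CPM. HAS2 and CEMIP, both picked for their large falls, were thus low together in all siZIP7_1 libraries. The chemerin receptor CMKLR1 kept 3.64% of the control level and the collagen receptor subunit ITGA10 kept 3.65%. G0S2, an inhibitor of triglyceride lipase, kept 3.68%, and GFPT2, which starts hexosamine synthesis, kept 4.03%. PLEKHG4B, the NADPH oxidase NOX5 and ANXA10 also fell, with log2 fold changes of -5.61, -5.58 and -5.32. In none of these genes, risen or fallen, did the siZIP7_1 and siNC libraries overlap. The genes were picked for their large changes, so this separation adds no support.

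**Figure D2:**
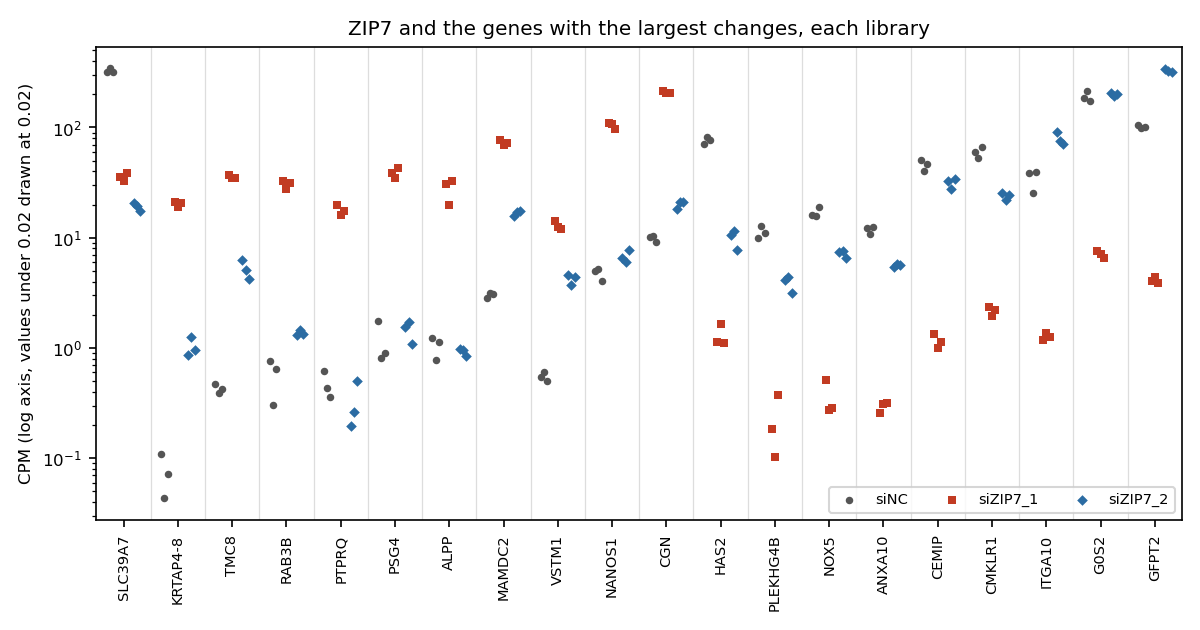
CPM on a log axis of SLC39A7, the 10 genes with the largest rises and 9 of the genes with the largest falls (horizontal axis), 1 point per library, with siNC, siZIP7_1 and siZIP7_2 side by side. The siZIP7_1 libraries stand clear of the siNC libraries in every gene, the genes other than SLC39A7 having been picked for large changes. In several genes, such as PTPRQ and G0S2, the siZIP7_2 libraries lie with siNC.

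The unfolded protein response moved unevenly. Of 22 ER stress sensors and transcription factors, 9 were higher and 12 were lower, with a median log2 fold change of -0.15. The sensor kinase PERK (EIF2AK3) rose from 19.1, 20.1 and 20.4 CPM to 46.7, 49.8 and 46.4 CPM (log2 fold change 1.26, SE 0.059, adjusted p = 1.78e-17 by edgeR). The heme-regulated kinase EIF2AK1, which shares the PERK substrate, rose by 0.79 on the log2 scale. Among the transcription factors, XBP1 fell from 169, 170 and 161 CPM to 101, 100 and 103 CPM (log2 fold change -0.72), ATF4 fell by 0.21, and ATF5 and NFE2L1 fell by 1.32 and 1.06. For ATF5, 23.7% of the exonic length overlaps another gene. The XBP1 counts do not tell the spliced from the unspliced form.

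ER chaperones and folding enzymes rose as a group. Of 38 genes, 27 were higher and 9 lower, a share of 71.1% higher against the background of 35.6%, and the median log2 fold change was 0.28. BiP, the central ER chaperone encoded by HSPA5, was at 768, 757 and 736 CPM in siNC and 1084, 1145 and 1068 CPM in siZIP7_1, a rise of 1.46-fold (SE 0.057 on the log2 scale, adjusted p = 1.4e-09 by edgeR). The lectin chaperones CANX and CALR rose by 0.43 and 0.41 on the log2 scale. TXNDC11 and the oxidase ERO1B rose by 1.18 and 1.05. PPIB, an ER prolyl isomerase, fell instead from 246, 251 and 245 CPM to 85.3, 94.2 and 93.6 CPM (log2 fold change -1.44), although 27.2% of its exonic length overlaps another gene. UGGT1, which returns misfolded glycoproteins to the lectin cycle, fell by 0.74.

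Genes of ER-associated degradation were higher in 18 and lower in 11 of 34 cases, with a median of 0.16. HERPUD1, a membrane organiser of the degradation complex, rose from 86.4, 84.7 and 85.4 CPM to 145, 145 and 157 CPM (1.74-fold, adjusted p = 1.71e-14 by edgeR). The ubiquitin ligase SYVN1 rose by 0.83 on the log2 scale, EDEM1, which hands over trimmed glycoproteins, by 1.17, and FAM8A1, a partner of the ligase, by 2.02. In these genes every siZIP7_1 library was above every siNC library. SEL1L, the adaptor of the ligase, fell by 0.69, and NPLOC4, a cofactor of the extracting ATPase, fell from 339 to 356 CPM to 152 to 165 CPM (log2 fold change -1.14).

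The promoters of HSPA5 and HERPUD1 are shown because these genes stand for the chaperone and the degradation arms. Both are RefSeq sequences of GRCh38.p14, 250 bases up to the transcription start, 5′ to 3′ on the gene's strand. HSPA5 is on the minus strand at chr9:125241344-125241593 and HERPUD1 on the plus strand at chr16:56931892-56932141. Capitals mark matches to an ER stress response element (ERSE, CCAAT and CCACG with 9 bases between them), an ATF4 and C/EBP element (TGATGNAA) or an E-box (CACGTG), searched on both strands.
HSPA5: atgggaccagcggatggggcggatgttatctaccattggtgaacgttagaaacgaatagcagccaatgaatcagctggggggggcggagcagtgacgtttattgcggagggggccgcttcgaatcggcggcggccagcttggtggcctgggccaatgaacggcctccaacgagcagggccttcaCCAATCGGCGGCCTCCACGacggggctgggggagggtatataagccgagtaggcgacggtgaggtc
HERPUD1: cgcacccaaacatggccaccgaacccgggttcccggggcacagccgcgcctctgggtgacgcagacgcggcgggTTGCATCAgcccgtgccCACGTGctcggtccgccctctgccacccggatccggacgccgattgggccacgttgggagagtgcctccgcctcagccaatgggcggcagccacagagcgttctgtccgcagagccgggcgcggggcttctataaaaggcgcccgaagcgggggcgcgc
HSPA5 held 1 ERSE, from 66 to 48 bases before the start. HERPUD1 held 1 ATF4 element on the opposite strand, 176 to 169 bases before the start, and 1 E-box. It held no ERSE in exactly these letters. Other forms or spacings of ER stress elements were not searched for, so unmarked letters do not show that HERPUD1 lacks one. No motif overlapped another. A window of 300 bases, 250 before and 50 after the start, could be matched for 10797 of the 13322 tested genes, and an ERSE in exactly these letters was present in 14 of them (0.13%). In the chaperone list, 6 of 34 windows held one (17.6%). Of the 14 genes, 8 were higher and 3 lower with siZIP7_1, with a median of 0.41, XBP1 being among the lower ones. A match describes the letters only.

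Targets of ATF4 did not rise as a group. Of 28 genes of the amino acid response, 6 were higher and 13 lower, with a median of -0.09. CHAC1, which degrades glutathione, rose from 60.9, 58.1 and 57.4 CPM to 132, 130 and 132 CPM (log2 fold change 1.16, SE 0.053, adjusted p = 1.01e-17 by edgeR), and STC2 rose by 0.71. ASNS fell by 0.61, with 44.6% of its exons shared with another gene. The glycine transporter SLC6A9 fell to 32.3% of the control level. DDIT4, an inhibitor of mTORC1, fell from 186, 194 and 202 CPM to 66.2, 63.7 and 65.5 CPM, with 41.2% exonic overlap. Among 20 cytosolic tRNA synthetases, 7 were higher and 10 lower. The element TGATGNAA was found in 4 of 21 windows of the ATF4 list and in 6 of 16 of the synthetases, against 1.76% of all windows. WARS rose by 0.45 and SARS fell by 1.02 on the log2 scale.

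Genes for making ribosomes and for dividing fell almost throughout. Of 79 cytosolic ribosomal proteins, 73 were lower (92.4%) and 0 were higher in the edgeR test, with a median of -0.42. At an unadjusted p under 0.05, 1 was higher, and DESeq2 called 0 higher. The changes were modest, and 0 of the 79 fell by 2-fold. RPLP0 went from 982, 1058 and 995 CPM to 645, 697 and 660 CPM, and RPS6, RPS20 and RPSA fell by 0.61, 0.92 and 0.87 on the log2 scale. Ribosomal proteins have many processed copies, so reads of a single gene are less certain. Of 95 genes of ribosome biogenesis and RNA polymerase I, 80 were lower and 7 higher (median -0.51). NOP56, a core box C/D snoRNP protein, fell from 398, 381 and 381 CPM to 196, 203 and 212 CPM. TCOF1, which supports ribosomal RNA transcription, kept 38.5% and the helicase DHX33 kept 35.1%. WDR3 was one of the few that rose, by 0.69.

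DNA replication genes were lower in 55 of 59 cases (93.2%, median -0.72) and genes of mitosis and the spindle in 43 of 50 (86%, median -0.61). None was called higher in either list by edgeR or by DESeq2, and 1 gene of each list was higher at an unadjusted p under 0.05. The helicase subunit MCM2 fell from 169, 174 and 158 CPM to 97.1, 98.3 and 92 CPM, with 23.6% exonic overlap. PCNA fell less, by 0.32 on the log2 scale. GINS3 kept 28.2% of the control level and ORC3 kept 36.2%. In mitosis, CCNB1 and PLK1 fell by 0.73 and 0.71, and the cell cycle transcription factor MYBL2 fell from 204 to 229 CPM to 73.6 to 76.1 CPM (log2 fold change -1.52, adjusted p = 4.16e-20 by edgeR).

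The cell cycle inhibitor p21 was lower as well. CDKN1A went from 110, 120 and 109 CPM to 24.9, 24.1 and 24.3 CPM (log2 fold change -2.21, SE 0.056, adjusted p = 1.05e-23 by edgeR), 21.6% of the control level. Of 31 p53 target genes 17 were higher and 8 lower, with a median of 0.30. Among the 8 lower ones only 1, CDKN1A, fell by at least 2-fold. The stress cytokine GDF15 rose 10.5-fold, from 11, 9.67 and 10.8 CPM to 115, 99.7 and 116 CPM. TP53INP1, which acts in autophagy and cell death, rose 4.13-fold, and MDM2 rose 1.36-fold. The kinase PLK2 fell by 0.95 on the log2 scale.

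Sterol, autophagy and lysosome genes rose. Of 36 genes of cholesterol synthesis and SREBP control, 26 were higher (72.2%) and 3 lower, with a median of 0.44. HMGCS1, which makes HMG-CoA, went from 60.2, 54 and 66.2 CPM to 242, 264 and 255 CPM (log2 fold change 2.07, SE 0.058, adjusted p = 7.57e-23 by edgeR). The sterol-sensing receptor NR1H3 and its target ABCA1 fell by 0.66 and 0.30 on the log2 scale. Of 50 autophagy genes, 35 were higher (70%) and 7 lower (median 0.44). The cargo receptor SQSTM1 rose from 538, 541 and 530 CPM to 991, 1017 and 1024 CPM, with 22% exonic overlap. MAP1LC3B rose by 0.44, TP53INP1 by 2.05 and ATG2B, a lipid transfer protein of the growing autophagosome, by 1.47. ATG3 and the receptor CALCOCO2 fell by 0.93 and 0.80.

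Of 62 lysosome genes, 42 were higher (67.7%) and 12 lower, with a median of 0.49. MITF, a transcription factor of the TFEB family, rose from 24, 24.9 and 24.9 CPM to 75.3, 76.1 and 73.8 CPM. TFEB itself was at 3.41, 2.96 and 3.1 CPM in siNC and 2.4, 3.3 and 2.86 CPM in siZIP7_1, which overlap, and its adjusted p was 0.448 by edgeR. The sulfamidase SGSH rose 2.91-fold. The sulfatase ARSB fell from 27.6, 27.5 and 29.7 CPM to 5.57, 5.6 and 5.4 CPM, so the list held large changes in both directions.

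Among the zinc transporters, 11 SLC39 importers were tested, of which 7 were lower and 2 higher. SLC39A7 is among the lower ones as the target. SLC39A14, which also carries iron, fell from 209, 213 and 214 CPM to 69.6, 73 and 68.4 CPM (log2 fold change -1.59, SE 0.047, adjusted p = 3.98e-22 by edgeR). SLC39A10 fell by 0.88, while SLC39A4 and SLC39A13 rose by 0.73 and 0.51. Of 13 SLC30 exporters, metallothioneins and MTF1, 8 were higher (61.5%) and 4 lower (30.8%), with a median of 0.22. MT2A and SLC30A1 were among the lower ones, with small changes. MT2A went from 593, 573 and 555 CPM to 501, 458 and 501 CPM and the plasma membrane exporter SLC30A1 fell by 0.26. MT1E rose from 76.5, 79.4 and 70.7 CPM to 155, 144 and 158 CPM. Metallothionein genes are nearly identical to each other, so reads may be split between them.

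NRF2 target genes fell. Of 35, 25 were lower (71.4%) and 6 higher, with a median of -0.54. NQO1 went from 330, 331 and 350 CPM to 152, 168 and 147 CPM (log2 fold change -1.12, SE 0.05, adjusted p = 4.85e-18 by edgeR). The aldo-keto reductases AKR1C1 and AKR1C2 kept 10.8% and 11.2% of the control level, but share much sequence. HMOX1, which degrades heme, rose by 0.75 and BLVRB by 0.93. Ferroptosis regulators moved in both directions, with 14 higher and 16 lower of 39, close to the background. GPX4, which reduces lipid peroxides, rose from 150, 152 and 147 CPM to 217, 214 and 225 CPM. The cystine carrier SLC7A11 was at 301, 345 and 374 CPM in siNC and 342, 349 and 317 CPM in siZIP7_1. These ranges overlap, and the log2 fold change of -0.02 (SE 0.06, adjusted p = 0.777 by edgeR) turned positive in 4 of the alternative settings. LPCAT3, which loads polyunsaturated fatty acids into phospholipids, fell to 23.2%, with 65.6% exonic overlap. The peptidase DPP4 rose from 0.644 to 0.748 CPM to 7.21 to 7.5 CPM, and the iron exporter SLC40A1 rose 2.46-fold.

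In energy metabolism, 20 of 41 hypoxia and glycolysis genes were lower and 12 higher, with a median of -0.09. The largest of these falls among well-expressed genes was in LDHA, which converts pyruvate to lactate. It went from 1069, 1056 and 1111 CPM to 148, 175 and 156 CPM (log2 fold change -2.76, SE 0.055, adjusted p = 5.81e-26 by edgeR). VEGFA fell from 523, 541 and 539 CPM to 142, 136 and 137 CPM. The glucose transporter SLC2A3 rose 2.41-fold. Nuclear subunits of oxidative phosphorylation were lower in 34 and higher in 14 of 77 genes, mostly by little. SDHD, a membrane anchor of complex II, fell to 32%. Mitochondrially encoded subunits had a median of 0.01. MT-CO1 fell by 0.45 and MT-ND2 rose by 0.37 on the log2 scale, while MT-ND1 was at 1577 to 1748 CPM in siNC and 1628 to 1697 CPM in siZIP7_1.

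**Figure D3:**
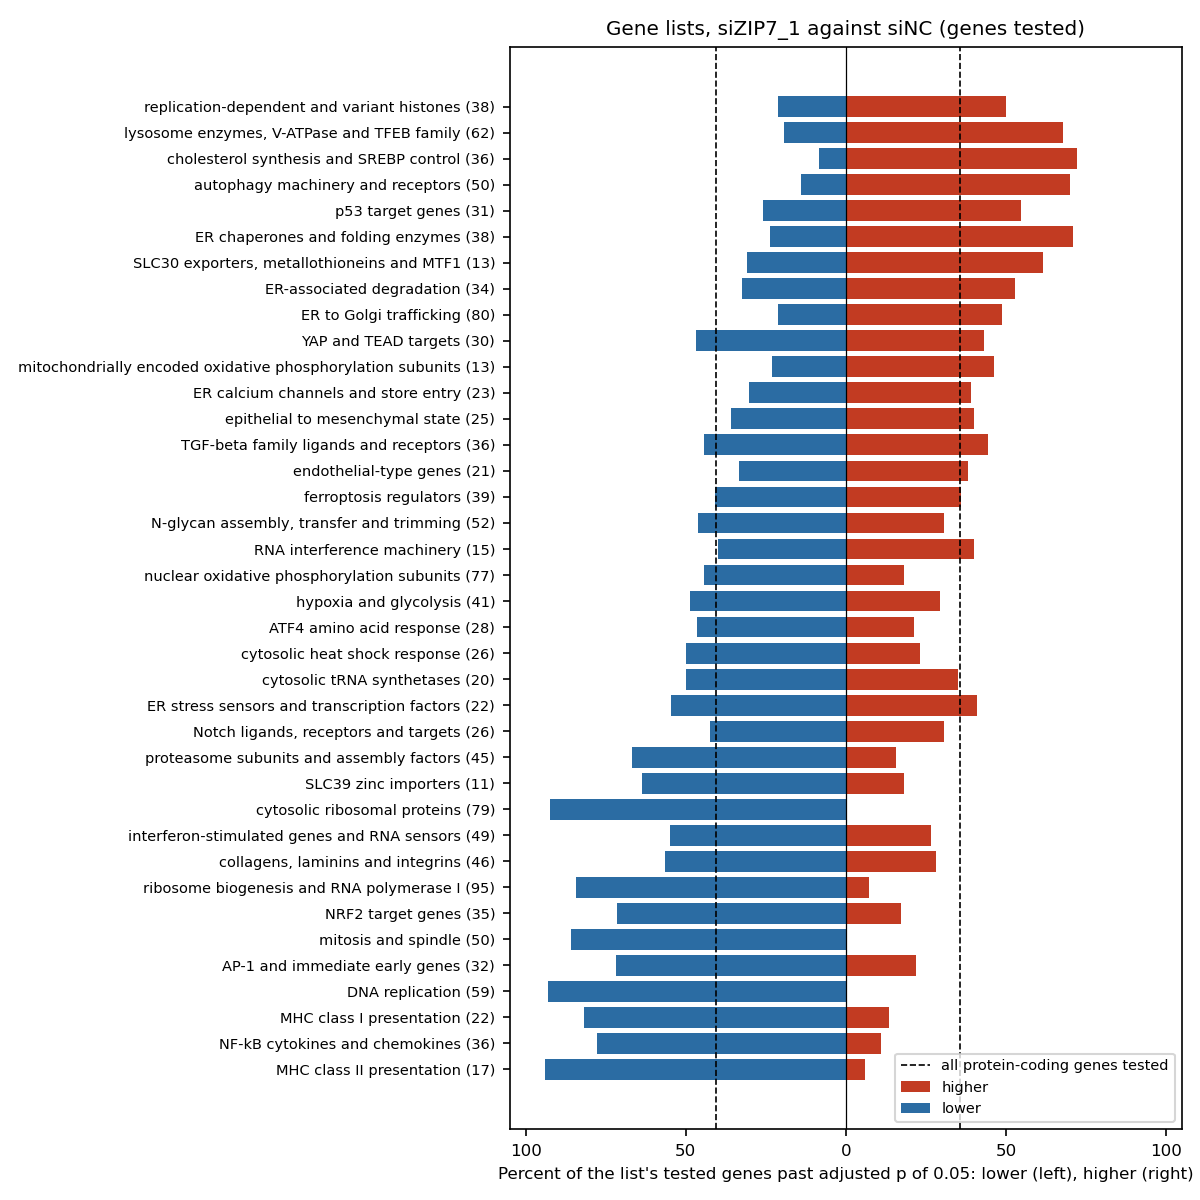
Percent of each gene list past an adjusted p of 0.05, lower to the left and higher to the right, with the number of tested genes in brackets and lists ordered by median log2 fold change. Dashed lines mark all protein-coding genes (40.5% lower, 35.6% higher). Cholesterol, autophagy, lysosome and ER chaperone genes lie furthest to the right of the line, and MHC class II, DNA replication and ribosomal protein genes furthest to the left.

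Cytokine genes driven by NF-kB, a transcription factor of inflammation, fell with siZIP7_1. Of 36 genes, 28 were lower (77.8%) and 4 higher. In 20 of them the fall was at least 2-fold, and the median log2 fold change was -1.20. The neutrophil chemokine CXCL8 went from 152, 133 and 171 CPM to 12.2, 13.2 and 14.3 CPM (log2 fold change -3.52, SE 0.094, adjusted p = 3.26e-23 by edgeR). CSF3 went from 2.29, 2.15 and 3.13 CPM to 0.0728, 0.172 and 0.188 CPM. Some feedback inhibitors of the pathway rose. TNFAIP3 went from 15, 13.4 and 14.5 CPM to 44.9, 48 and 40.7 CPM, and NFKBIE rose 2.29-fold. The inhibitor NFKBIA was at 46.2, 40.2 and 41.3 CPM in siNC and at 40, 38.2 and 38.1 CPM in siZIP7_1. Its small fall (log2 fold change -0.14, adjusted p = 0.0391 by edgeR) lost the call in 9 of the alternatives, with adjusted p from 0.0507 without siNC replicate 3 to 0.303 without siNC replicate 1.

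Immediate early genes followed the same direction. Of 32 AP-1 and immediate early genes, 23 were lower (71.9%) and 7 higher, with a median of -0.67. JUN fell from 351, 380 and 351 CPM to 137, 138 and 136 CPM, and FOSL1 from 574, 576 and 535 CPM to 181, 187 and 190 CPM. IER3 kept 16.8% of the control level, with 26.5% exonic overlap. JUND and BATF rose by 1.49 and 2.11 on the log2 scale, JUND from 102, 115 and 106 CPM to 296, 306 and 307 CPM.

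MHC class II genes, which present antigen and depend on the coactivator CIITA, showed the lowest median of the 38 lists. Of 17 genes, 16 were lower (94.1%) and 1 higher, and 14 fell by at least 2-fold, with a median of -3.12. CIITA went from 36.2, 36.3 and 35.3 CPM to 3.42, 2.75 and 3.67 CPM (log2 fold change -3.45, SE 0.09, adjusted p = 2.12e-23 by edgeR), with 23.4% exonic overlap. HLA-DRA went from 131, 118 and 136 CPM to 10.5, 11.8 and 10.6 CPM and HLA-DPB1 kept 4.83%. HLA-DOA had 88, 54 and 103 reads in siNC and 1, 0 and 1 in siZIP7_1, a ratio of 137 with an exact 95% counting interval from 37.6 to 1140. RFXANK, a subunit of the promoter-binding complex, rose by 0.26, with 23.3% exonic overlap. The 5 leukocyte markers PTPRC, CD3E, CD14, ITGAM and LYZ summed to 2.88 to 4.07 CPM in siNC and 1.38 to 1.64 CPM in siZIP7_1, with CD3E at or near 0. CD14 averaged 1.81 CPM in siNC and 0.544 CPM in siZIP7_1, and LYZ 1.06 and 0.0465 CPM. PTPRC went the other way, at 0.402 and 0.875 CPM. In bulk RNA, fewer cells of a type and less RNA per cell cannot be told apart.

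Class I presentation fell less, in 18 of 22 genes (median -0.76). Its activator NLRC5 kept 31.9%, and HLA-B fell from 770, 779 and 786 CPM to 233, 238 and 228 CPM. Reads of HLA genes can be shared among loci. Of the 22, CANX and CALR are the ER chaperones that rose. Interferon-stimulated genes were divided, with 27 of 49 lower (55.1%) and 13 higher (26.5%). GBP1 went from 73, 70.2 and 72.4 CPM to 9.65, 9.55 and 9.04 CPM and GBP2 kept 6.4%. IFIT3 rose from 77.5, 71 and 83.5 CPM to 199, 222 and 195 CPM, IFIT1 rose 2.14-fold, and STAT2, which carries type I interferon signals, rose 2.99-fold. ISG15 was at 51.7, 52.8 and 47.5 CPM in siNC and 47.6, 44.2 and 49.7 CPM in siZIP7_1, which overlap (adjusted p = 0.139 by edgeR).

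**Figure D4:**
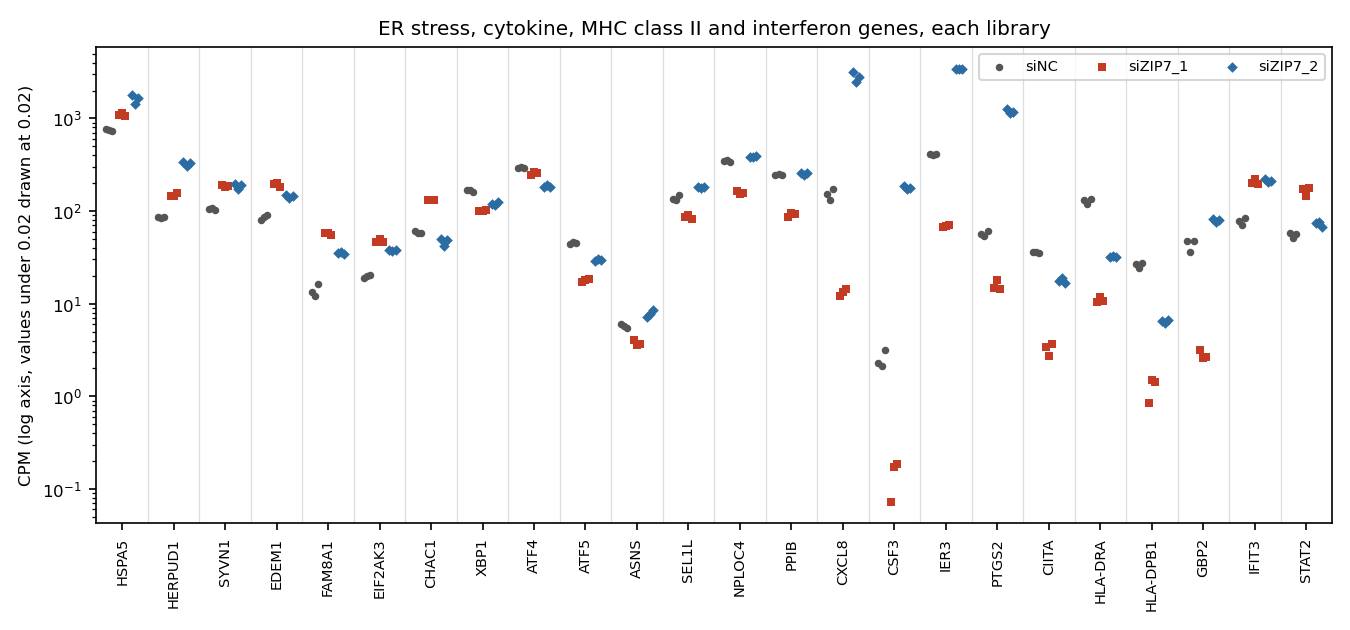
CPM on a log axis of ER stress, cytokine, MHC class II and interferon genes (horizontal axis), 1 point per library in siNC, siZIP7_1 and siZIP7_2. CXCL8, CSF3, IER3 and PTGS2 are lower than siNC in all siZIP7_1 libraries and higher in all siZIP7_2 libraries, while HSPA5, HERPUD1 and SYVN1 are higher in both.

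Adhesion and matrix genes were lower more often than the background. Of 46 collagens, laminins and integrins, 26 were lower (56.5%) and 13 higher (28.3%), against 40.5% and 35.6% over all genes. Of the 46, 18 fell and 6 rose by at least 2-fold, against 10.1% and 9.32% over all genes. COL6A3 went from 41.2, 43.6 and 41.7 CPM to 4.19, 4.12 and 3.7 CPM (log2 fold change -3.40, SE 0.077, adjusted p = 7.26e-25 by edgeR). COL8A1 rose from 185, 198 and 185 CPM to 672, 682 and 648 CPM, and the basement membrane chain COL4A4 rose 5.74-fold. ITGB1 overlapped between groups, at 768 to 788 CPM and 717 to 799 CPM.

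Genes of the epithelial and mesenchymal states moved with little net direction. Of 25, 10 were higher (40%) and 9 lower (36%), close to the background of 35.6% and 40.5%. VIM fell from 5567, 5688 and 5333 CPM to 2636, 2808 and 2618 CPM, with 24.4% exonic overlap, S100A4 fell to 10.5%, and the repressor of epithelial genes ZEB1 fell from 114, 113 and 121 CPM to 42.8, 41.9 and 43.2 CPM. E-cadherin (CDH1) rose 8.84-fold, from 0.363 to 0.605 CPM to 3.98 to 4.52 CPM. N-cadherin (CDH2), a mesenchymal marker, rose 3.85-fold. Among luminal markers KRT19 rose from a mean of 79.6 to 305 CPM, ESR1 averaged 0.0887 and 0.241 CPM and GATA3 averaged 15.8 and 8.49 CPM. The sum of the 5 luminal markers was 97 to 101 CPM in siNC and 306 to 325 CPM in siZIP7_1, nearly all of it KRT19.

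Of 30 targets of YAP and TEAD, 13 were higher (43.3%) and 14 lower (46.7%), close to the background of 35.6% and 40.5%. ANKRD1 rose from 644, 629 and 663 CPM to 2481, 2575 and 2535 CPM. CTGF fell by 0.72 and CYR61 by 0.21 on the log2 scale, and the coactivator WWTR1 (TAZ) fell from 176, 183 and 196 CPM to 47.7, 48.2 and 46 CPM. In the Notch list 8 were higher (30.8%) and 11 lower (42.3%) of 26, close to the background. The ligand JAG1 went from 588, 636 and 619 CPM to 109, 110 and 104 CPM (log2 fold change -2.51, SE 0.051, adjusted p = 7.52e-26 by edgeR), the target HES1 kept 20.8%, and the ligand JAG2 rose 4.01-fold. With HES5, which lay at or under 3 reads in both groups, set to no change, the median of the list went from -0.19 to -0.08.

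Among 21 endothelial-type genes 8 were higher (38.1%) and 7 lower (33.3%), close to the background of 35.6% and 40.5%. FLI1 had 1, 2 and 3 reads in siNC and 67, 77 and 63 in siZIP7_1, a ratio of 30.8 with an exact 95% counting interval from 13.9 to 84.8, and FLT1 rose from 0.601 to 0.676 CPM to 12.8 to 13.4 CPM. PECAM1 fell to 3.51%. The 5 endothelial markers summed to 11.9 to 13 CPM in siNC and 5.05 to 5.32 CPM in siZIP7_1, but did not move together. TIE1, most of the sum, averaged 9.44 CPM in siNC and 3.99 CPM in siZIP7_1, and PECAM1 averaged 3.02 and 0.102 CPM. VWF went the other way, from a mean of 0.0761 to 0.895 CPM. CDH5 averaged 0.0119 and 0.135 CPM, and EMCN was near 0 in both. Of 36 TGF-beta family genes 16 were higher (44.4%) and 16 lower (44.4%), not far from the background of 35.6% and 40.5%. The co-receptor TGFBR3 rose 4.81-fold. The BMP antagonist NOG fell from 56.9, 67.3 and 61.7 CPM to 16.3, 17.1 and 15.7 CPM.

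Of 38 histone genes, 19 were higher (50%) and 8 lower, and 15 rose by at least 2-fold. The linker histone HIST1H1C went from 17.9, 15.6 and 19.8 CPM to 76, 58.6 and 82.3 CPM and HIST1H2AC from 9.98, 9.88 and 12.3 CPM to 92, 73.6 and 97.1 CPM. HIST2H2BE rose 14.1-fold (adjusted p = 1.48e-19 by edgeR). In each of these genes siZIP7_1 replicate 2 was the lowest of its group. The variants H2AFV and H3F3B fell by 1.37 and 0.57 on the log2 scale. The median of the fitted log2 fold changes was 0.81, and 0.68 with HIST1H1T, under 3 reads in both groups, set to no change. Most histone mRNAs have no poly(A) tail and the genes are much alike, so their counts depend on how the RNA was selected.

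Of 45 proteasome subunits and assembly factors, 30 were lower and 7 higher (median -0.22), and PSMG2, an assembly chaperone, kept 39.2%. The cytosolic heat shock response had 13 lower and 6 higher of 26. HSPA1A rose by 0.34 and DNAJB1 fell from 207, 214 and 202 CPM to 106, 112 and 111 CPM. Of 80 genes of ER to Golgi trafficking 39 were higher and 17 lower (median 0.12). SEC23B, of the COPII coat, rose 1.93-fold, and SRPRA, the receptor that brings ribosomes to the ER, fell from 230, 235 and 230 CPM to 67.8, 62.1 and 65.4 CPM. N-glycan genes had 16 higher and 24 lower of 52, with DAD1 up 1.93-fold and FUT8 down to 47.6%. In ER calcium handling, 9 were higher (39.1%) and 7 lower (30.4%) of 23. ITPR3, a calcium release channel, rose from 376, 390 and 351 CPM to 807, 781 and 728 CPM, and the calcium-binding RCN1 fell to 21.6%, with 21.9% exonic overlap. The RNA interference machinery had 6 higher (40%) and 6 lower (40%) of 15, close to the background of 35.6% and 40.5%. DICER1 fell from 145, 147 and 150 CPM to 74.2, 74.9 and 74.3 CPM, AGO4 rose 2.32-fold, and AGO2 overlapped between groups at 345 to 381 and 318 to 349 CPM.

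The changes made by siZIP7_1 alone were taken as those of at least 2-fold in one direction against both siNC and siZIP7_2, each past an adjusted p of 0.05. By this rule 572 genes were higher (4.29% of those tested) and 828 were lower (6.22%). Both comparisons use the same siZIP7_1 libraries, and a gene can qualify although siZIP7_2 moved it the same way by less. Of the 572 genes, siZIP7_2 also raised 165 against siNC, lowered 186 and left 221 short of the threshold. Of the 828 genes, it also lowered 169, raised 464 and left 195 short of the threshold. The 572 genes had a median log2 fold change against siNC of 1.64 with siZIP7_1, and the 828 genes had one of -1.69. The values for siZIP7_2 against siNC in the same genes were 0.00 and 0.38. Among the 828, 91 genes had at most 3 reads in every siZIP7_1 library.

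The genes that stood furthest above both groups came from many functions. PTPRQ, a receptor-type phosphatase of hair cells, was at 19.9, 15.9 and 17.6 CPM with siZIP7_1, at 0.356 to 0.617 CPM with siNC and at 0.194 to 0.5 CPM with siZIP7_2. SH2D3A, an adaptor protein, was at 162, 148 and 154 CPM, against 7.19 to 8.68 CPM and 6.57 to 7.3 CPM. RHOBTB1 was at 93.8, 87.5 and 89 CPM, against 6.1 to 7.3 CPM and 5.33 to 6.17 CPM. In these genes the siZIP7_2 libraries lay at or slightly below the control level, with the siZIP7_1 libraries far above both. The chloride channel gene ANO2 and THSD7B behaved alike, with log2 fold changes of 3.62 and 3.97 against siNC and 3.63 and 4.36 against siZIP7_2. PSG4, ALPP, RAB3B, KRTAP4-8 and NANOS1, described above, complete the 10.

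The genes that stood furthest below both groups included receptors, matrix and acute-phase genes. F2RL3, a thrombin receptor, had 229, 179 and 264 reads in siNC and 1, 1 and 2 in siZIP7_1, a ratio of 188 with an exact 95% counting interval from 73.2 to 693. In siZIP7_2 it was at 7.27 to 8 CPM, close to the 7.69 to 9.4 CPM of siNC (log2 difference -0.16, adjusted p = 0.168 by edgeR). G0S2 was at 7.5, 7.18 and 6.56 CPM with siZIP7_1, 175 to 215 CPM with siNC and 192 to 205 CPM with siZIP7_2. CEMIP was at 0.996 to 1.35 CPM with siZIP7_1, and siZIP7_2 lowered it too, from 40.7 to 50.3 CPM in siNC to 27.4 to 34 CPM (log2 fold change -0.55, adjusted p = 1.88e-07 by edgeR). In other genes siZIP7_2 went the opposite way. The matrix glycoprotein TNC was at 17.6, 19.8 and 15.9 CPM with siZIP7_1, 426 to 438 CPM with siNC and 1005 to 1151 CPM with siZIP7_2. The complement protein C3 was at 1.93, 2.23 and 2.35 CPM, against 35.8 to 53.6 CPM and 205 to 234 CPM. NGFR, SERPINA1, ITGA10 and GFPT2 showed this pattern too, with log2 differences between siZIP7_1 and siZIP7_2 of -6.73, -6.81, -5.95 and -6.32. For NGFR, 27.1% of the exonic length overlaps another gene.

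**Figure D5:**
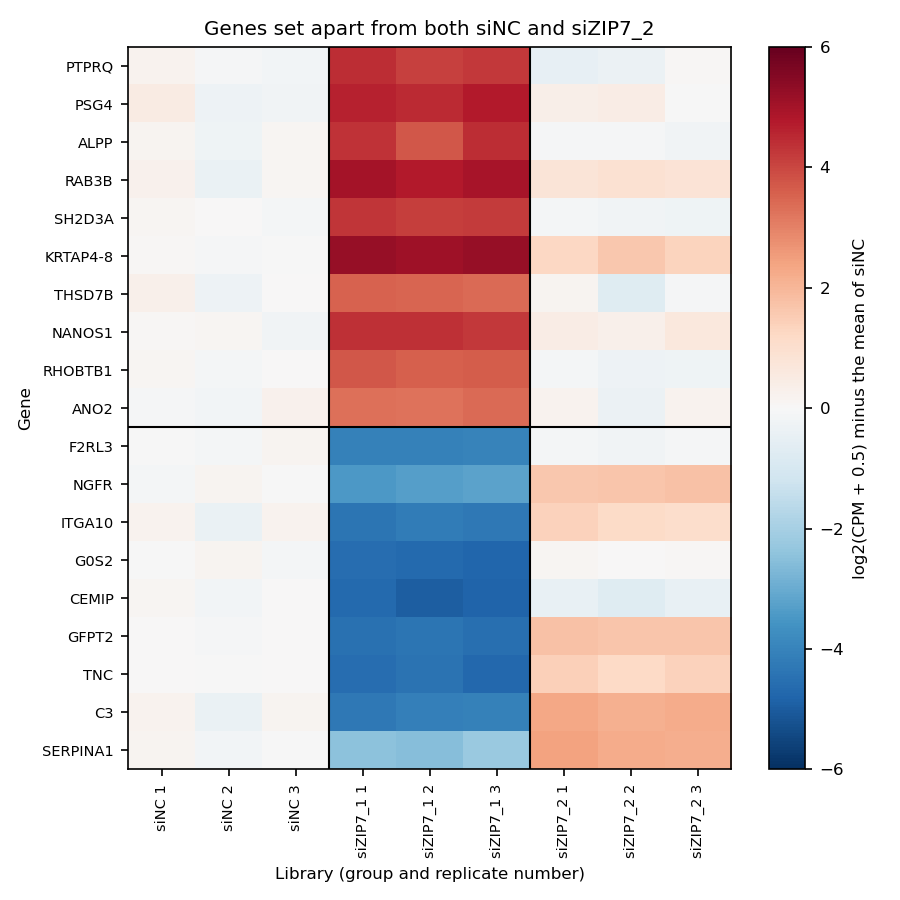
Heat map of log2(CPM + 0.5) minus the siNC mean for the 10 genes furthest above and 9 of those furthest below both siNC and siZIP7_2, with genes in rows and the 9 libraries in columns. The siZIP7_1 columns are uniformly red or blue, while the siZIP7_2 columns are near 0 in genes such as G0S2 and of the opposite colour in TNC, C3 and SERPINA1.

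Cytokine and MHC class II genes were often among those lowered by siZIP7_1 alone. In the NF-kB list 20 of 36 genes qualified, among them CXCL8, IL6, IL1A, IL1B, CXCL1, CCL2 and CSF2, against the background of 6.22%. The cytokine genes had a median of -1.20 under siZIP7_1 but 2.59 under siZIP7_2, each against siNC. CXCL8 was at 2459 to 3179 CPM and PTGS2, which makes prostaglandins, at 1137 to 1267 CPM with siZIP7_2, compared with 14.4 to 17.8 CPM for PTGS2 with siZIP7_1. In MHC class II 11 of 17 genes qualified, but siZIP7_2 also lowered CIITA, to 16.9 to 19.1 CPM, and HLA-DRA, to 31.7 to 33 CPM, and the list's medians were -3.12 and -1.37. Of 35 NRF2 targets 9 qualified. AKR1C1 was at 181 to 256 CPM with siZIP7_2, compared with 0.756 to 1.02 CPM with siZIP7_1. Of 49 interferon-stimulated genes 11 qualified as lower, and STAT2 as higher.

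Collagens, laminins and integrins held 16 genes lowered and 4 raised by siZIP7_1 alone, of 46. Of 26 Notch genes 8 met the rule as lower, HES1, JAG1, NOTCH1, NOTCH3 and RBPJ among them. JAG1 was lowered by siZIP7_2 too, to 288 to 316 CPM, with log2 fold changes against siNC of -2.51 with siZIP7_1 and -1.02 with siZIP7_2. LFNG, which modifies Notch receptors, was at 4.36 to 5.32 CPM with siZIP7_1 and 125 to 147 CPM with siZIP7_2. Of 36 TGF-beta family genes 8 were lowered alone, including the receptors TGFBR1, TGFBR2 and BMPR2. In glycolysis 6 of 41 qualified, LDHA, ALDOA, PKM, VEGFA, EPAS1 and CA9. LDHA was at 924 to 941 CPM with siZIP7_2, near the 1056 to 1111 CPM of siNC. CDKN1A was at 255 to 281 CPM with siZIP7_2, and its log2 fold changes against siNC were -2.21 with siZIP7_1 and 1.25 with siZIP7_2.

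In 3 of the ER lists few genes were changed by siZIP7_1 alone. Of 94 entries in the lists of ER stress factors, chaperones and ER-associated degradation, 3 qualified, all of them lower, namely NFE2L1, PPIB and NPLOC4. Over all tested genes 4.29% qualified as higher and 6.22% as lower. The rule asks for a 2-fold change against siNC, which few genes of these lists reached. In the order given, 1, 2 and 2 genes rose and 2, 1 and 2 fell by that much. Few could therefore qualify whatever siZIP7_2 did, and the low count does not show a response shared by both siRNAs. Of 23 ER calcium genes 1 qualified as higher and 2 as lower, and of 80 ER to Golgi genes 2 as lower. PPIB was at 244 to 256 CPM with siZIP7_2, compared with 85.3 to 94.2 CPM with siZIP7_1. The values of HSPA5 against siNC were 0.54 with siZIP7_1 and 1.12 with siZIP7_2, and those of HERPUD1 were 0.80 and 1.92. HERPUD1 was at 305 to 335 CPM with siZIP7_2, above all siZIP7_1 libraries. SYVN1 had 0.83 with each siRNA. CHAC1 was raised by siZIP7_1 alone, at 132, 130 and 132 CPM, compared with 42.4 to 49.7 CPM with siZIP7_2. None of the ribosomal protein, ribosome biogenesis, heat shock, N-glycan or RNA interference genes met the rule in edgeR. The count was also 0 by DESeq2 and at unadjusted p-values under 0.05. For ribosomal protein and heat shock genes this was fixed by the rule, since 0 of them changed 2-fold against siNC. Of the RNA interference genes 1 rose and 0 fell by 2-fold, and of the N-glycan genes 2 rose and 2 fell. In ribosome biogenesis 1 rose and 13 fell by 2-fold. With only 26 heat shock and 15 RNA interference genes tested, a count of 0 in these lists says little beside the shares over all genes.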

How the data were processed

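Transfected MDA-MB-231 cells were sampled for RNA-seq at 96 h, with 3 libraries each for siNC, siZIP7_1 and siZIP7_2. The authors deposited 1 table of unnormalized counts per library, listing reads by Ensembl gene. The submitters' processing notes list Trim Galore 0.4.1, FastQC 0.11.2, STAR, HTSeq 0.6.1 and DESeq2 1.16.1, without roles. The genome build, annotation and strand setting are not given in the sources used here, so reads of a gene and of an overlapping gene on the other strand may not be separated. GENCODE release 29 (GRCh38) held 58275 of the 58395 identifiers and supplied symbols, gene types and the exonic overlap between genes. HTSeq's summary lines were left out of the totals (no feature 7.43 to 11.5%, ambiguous 2.66 to 2.91%).

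Counts were analysed with edgeR 4.0.16 in R 4.3.3. One fit covered all 9 libraries, with TMM normalization, the low-count filter over the groups and the quasi-likelihood test. Benjamini-Hochberg adjustment ran over all 16761 genes tested, at a threshold of 0.05. The members and gene lists were chosen with earlier results of these data known. The genes named are the first 2 of each list and the 2 largest called changes in each direction (mean of at least 1 CPM), the 10 largest changes in each direction (at least 5 CPM), and the same for siZIP7_1 alone, together with genes that met the rule for siZIP7_1 alone. Some genes that this rule selects are not reported here. Exonic overlap is given where it is over 20%. Promoter windows came from RefSeq (GRCh38.p14) and were searched on both strands.

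The step was tested on simulated counts for siZIP7_1 against siNC with 15510 genes. Of 50 planted genes per size, 88% were recovered at 1.5-fold and 100% at 2-fold, 4-fold and 8-fold, and 3.96% of calls were false. The planted genes were few, changed in random directions, and had the spread estimated from these libraries. In the data 35.6% of protein-coding genes were called higher and 40.5% lower, so these rates may not carry over. Chi-squared per gene was 2.49 to 6.54 for library pairs within a group and 166 to 295 between groups. Each library was counted as a replicate, although these values cannot tell separate cultures from technical repeats. Alternatives were DESeq2 1.42.0 or only its size factors, scaling by the upper quartile, dropping the low-count filter or asking for 10 counts throughout, a replicate block, a fit to siNC and siZIP7_1 only, a test against a 2-fold change, and leaving out each library.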

Additional observations from a re-analysis of the deposited data

How the results depend on the processing

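The numbers of genes called stayed within 1.5 times the reported ones under every alternative run. Over these, 4545 to 4948 genes were higher and 4894 to 5427 lower than in siNC. With at least a 2-fold change there were 831 to 1358 higher and 911 to 1483 lower, and siZIP7_1 alone gave 439 to 636 higher and 565 to 875 lower. The lowest 2-fold counts came from the test against a 2-fold change, and the lowest counts for siZIP7_1 alone came with at least 10 counts in every library. Of the calls, 46.4 to 48.8% were higher. Of the lists, 22 counts of members moved by more than 1.5 times and 1194 did not, and 47 medians moved by more than the spread between libraries and 561 did not. The histone median ran from 0.583 without the low-count filter to 1.415 with at least 10 counts in every library, the Notch median from -0.222 to -0.068 and the NRF2 median from -0.546 to -0.387. With at least 10 counts in every library, 4 endothelial-type genes were higher. Of the mitochondrially encoded genes, 5 were lower without siNC replicate 2 and 1 without siNC replicate 3. Medians that changed sign under some setting were those near 0, of the TGF-beta, endothelial-type, YAP, epithelial to mesenchymal, ER calcium and mitochondrially encoded lists. The replicate numbers did not pair the libraries, since same-numbered libraries had correlations of deviations from -0.118 to 0.12 and others from -0.228 to 0.194. With the replicate block 4774 genes were higher and 5427 lower. Among named genes, 2 changed sign, neither past the threshold in any setting. MT-ND1 was at 0.0138 with at least 10 counts in every library, 0.0166 with upper-quartile normalization and -0.0471 to 0.0302 with a library left out. SLC7A11 was at 0.0032 and 0.0057 in the same settings and -0.1037 to 0.0654 with a library left out. The small falls of NFKBIA, STIM1, MT-CO3, MT1A and SEC24D and the small rise of PDIA4 lost their calls in some settings. The cause was not tested. Depth limits genes near 3 reads per library, where fitted folds depend on the prior count.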
